A study of Mus musculus with 6 samples.

Results

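The colony-stimulating factors and their receptors were examined as 9 genes, taken by symbol from the 55450 genes in the table of kidney counts. The 4 ligand genes were Csf1 (M-CSF), Il34 (interleukin-34), Csf2 (GM-CSF) and Csf3 (G-CSF). The 5 receptor genes were Csf1r, Csf2ra, Csf2rb, Csf2rb2 and Csf3r. All 9 were found, and none was merged with another.

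RNA from whole kidneys of 6 wild type male C57BL/6J mice was sequenced. The mice were bought at 7 weeks of age, and kept for 1 week before the experiment. The 3 mice of the day-0 group were controls, labelled with 20% PEG (polyethylene glycol, a carrier). The 3 mice of the day-21 group had a daily gavage of adenine (0.16 g/kg) together with potassium oxonate (2.4 g/kg), a uricase inhibitor that raises uric acid. The effects of the 2 compounds and of the passage of time cannot be told apart, since the groups differ in all of them. The labels name no vehicle for the day-21 mice, so whether the groups also differ in it, and with what effect, is not known. Because the tissue was bulk, a change in the number of cells of a type and a change in RNA per cell cannot be told apart either.

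Total counts ran from 10963849 to 14256556 on day 0 and from 12662200 to 14333311 on day 21. The lowest level taken as visible, 3 counts, was between 0.247 and 0.309 CPM (per-gene counts divided by a TMM-adjusted library size) on day 0 and between 0.179 and 0.212 CPM on day 21, and covers counting error only. The labels do not tie single mice to cages or litters, so p-values measure only the spread between these mice. The tissue carried kidney genes throughout: the summed level of 8 tubule markers was 14240 to 16000 CPM on day 0 and 5662 to 6121 CPM on day 21, and 6 of the 8 fell. All 6 markers of tubule injury rose. Day-0 mouse 1 stood apart most in 2 of these injury markers, Krt20 and Havcr1. It had 160 counts of Krt20 (3 and 5 in the other day-0 mice) and 81 counts of Havcr1 (27 and 15). It was also the highest day-0 mouse for Spp1 (1614, 752 and 513 CPM), Vcam1 (29.2, 18.6 and 16.0 CPM) and, narrowly, Lcn2, but not for Sox9.

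Colony-stimulating factors are secreted proteins that keep myeloid cells alive and make them divide and mature. CSF-1 and IL-34 bind the same receptor tyrosine kinase, CSF-1R, on which most tissue macrophages depend, and both ligands are made by kidney tubule cells. GM-CSF binds its own alpha chain (Csf2ra) paired with the common beta chain (Csf2rb), which also serves interleukin-3 and interleukin-5, while G-CSF binds a separate receptor (Csf3r) that drives the making of neutrophils.

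Ligand and receptor genes rose together in the day-21 kidneys. Of the 9 genes, 7 had enough counts to be tested, and all 7 were called higher on day 21 (adjusted p under 0.05 and fold over 1.5, by the quasi-likelihood test of edgeR, with p-values adjusted by Benjamini-Hochberg). Among all 16592 genes tested, 19.6% were called higher and 35.1% were called in either direction. None of the 7 depended on day 21 to be tested, since each had at least 16 counts in every day-0 mouse. Every day-21 mouse lay above every day-0 mouse for each of the 7 tested genes, as it did for 30.7% of all genes tested. Of the untested pair, Csf2 overlapped between groups and Csf3 was apart by no more than 1 count. The median log2 fold change of the 7 genes was 1.54, beside 0.03 for all genes tested. By size of log2 fold change, Csf1 stood at rank 1088 of 16592 and Csf1r, the lowest of the 7, at rank 2915.

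**Figure D1:**
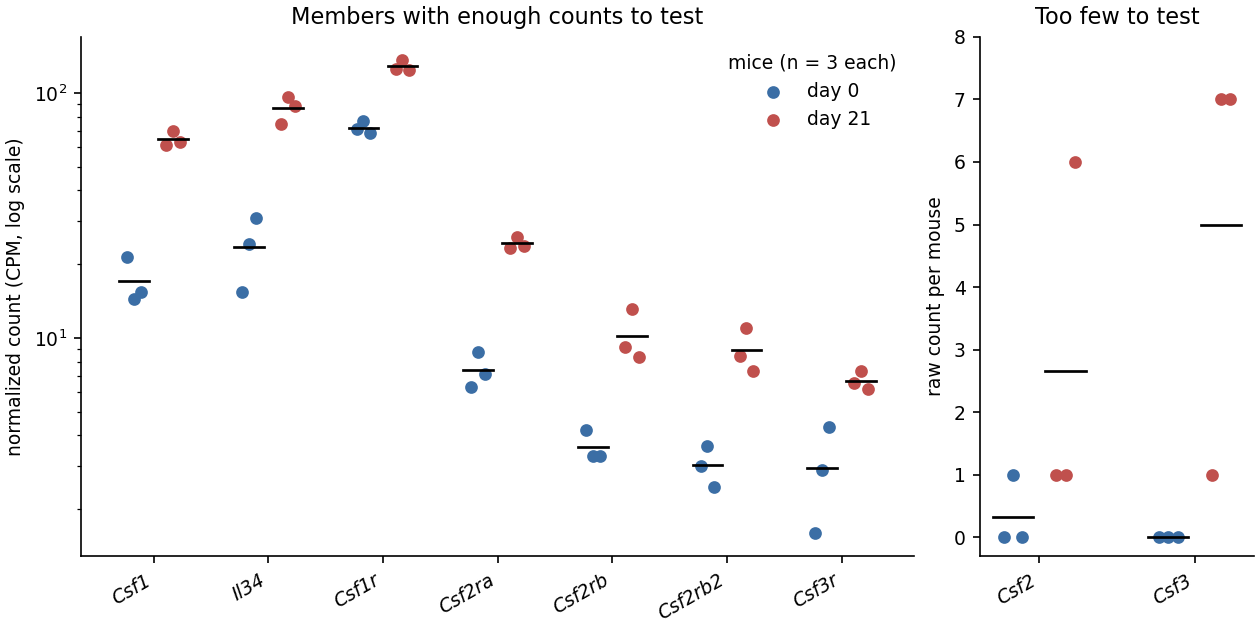
Level of each colony-stimulating factor and receptor gene in each mouse on day 0 and day 21, as CPM on a log axis for the 7 tested genes and as raw counts for Csf2 and Csf3, with each point 1 mouse and each bar a group mean. The groups are apart for every gene drawn except Csf2, and day-21 means run from 6.70 CPM for Csf3r to 128.5 CPM for Csf1r.

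The CSF-1 receptor and its ligands came first by level. Csf1 lies on chromosome 3 of GRCm38 (107741048 to 107760469, minus strand) and has 7 annotated transcripts, the longest with 9 exons. Its level was 21.5, 14.4 and 15.4 CPM in the 3 day-0 mice and 61.4, 70.0 and 63.3 CPM in the 3 day-21 mice. The lowest day-21 mouse was far above the highest day-0 mouse, which was day-0 mouse 1, the animal with raised Krt20 and Havcr1. Csf1 rose 3.81-fold (95% interval 2.98 to 4.86, log2 fold change 1.93 with SE 0.16, adjusted p = 9.4e-06).

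Il34 encodes the second CSF-1R ligand, known from skin, brain and injured tubules, and lies on chromosome 8 (110741829 to 110805924, minus strand). It was at 15.3, 24.1 and 30.8 CPM on day 0 and at 74.7, 96.0 and 88.6 CPM on day 21. Here day-0 mouse 1 was the lowest of the 6, opposite to its place for Csf1. Il34 rose 3.69-fold (95% interval 2.65 to 5.15, adjusted p = 6.5e-05). Of its exon bases, 4.95% lie opposite exons of the antisense genes Gm15894 and Gm15895, which also rose, by 2.04 and 1.57 on the log2 scale. The share of antisense reads in the Il34 counts was not tested, since the strand setting of the counting is not given in the sources used here.

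Csf1r, the receptor tyrosine kinase of both ligands, lies on chromosome 18 (61100598 to 61132149, plus strand). The 3 day-0 mice gave 71.2, 76.7 and 68.8 CPM and the 3 day-21 mice 125, 136 and 124 CPM. Both groups were tight and did not overlap. The rise was 1.78-fold (95% interval 1.52 to 2.09, log2 fold change 0.83 with SE 0.10, adjusted p = 1.2e-04), the smallest of the 7 tested genes. Of its exon bases, 15.1% overlap exons of Hmgxb3 on the other strand. Hmgxb3 moved the other way, from 46.6 to 32.7 CPM (log2 fold change -0.51, adjusted p = 0.0036), short of the 1.5-fold threshold. The share of Hmgxb3 reads in the Csf1r counts was not tested either, since the strand setting is not given.

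The ligand genes therefore gained more than the gene of their receptor. Within each mouse, Csf1 per kilobase of exon was 0.330, 0.206 and 0.245 of Csf1r on day 0 and 0.536, 0.564 and 0.557 of it on day 21, a 2.16-fold higher ratio. Il34 per kilobase went from 0.637, 0.927 and 1.32 of Csf1r to 1.76, 2.08 and 2.10 of it, a 2.15-fold higher ratio. In both ratios each day-21 mouse was above each day-0 mouse, and the exact two-sided permutation p was 0.1, the smallest that 3 against 3 mice can give (0.138 after Benjamini-Hochberg adjustment over 11 ratios). Both were computed after the fold changes of the genes were known.

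Csf1 and Il34 kept no steady proportion on day 0. The log2 ratio of Csf1 to Il34 per kilobase was -0.95, -2.17 and -2.43 for day 0, and for day 21 it was -1.71, -1.89 and -1.92. The 3 day-21 values were close together and lay inside the day-0 range, with day-0 mouse 1 above them and the other 2 below. The group means differed by 0.01 on the log2 scale (exact permutation p = 1), with an SD of 0.79 on day 0 and 0.11 on day 21. Without day-0 mouse 1 the difference was 0.46 and the groups no longer overlapped (exact permutation p = 0.1, the smallest that design allows). The part of the raised Krt20 and Havcr1 in that mouse was not tested.

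Levels between genes were compared per kilobase of exon. On day 0, Csf1r (12.5 ± 0.694 CPM per kilobase, SD, n = 3) and Il34 (12.0 ± 3.96) led and overlapped, and Csf1 (3.23 ± 0.724) and Csf2ra (2.57 ± 0.430) followed, also overlapping. On day 21 the order was Il34 (44.1 ± 5.55), Csf1r (22.2 ± 1.11), Csf1 (12.3 ± 0.861) and Csf2ra (8.48 ± 0.473), with no overlap between neighbours. By group means, Il34 was thus 3.70 times Csf1 on day 0 and 3.59 times Csf1 on day 21. Within single day-0 mice the proportion was not steady, with Csf1 at 0.518, 0.223 and 0.185 of Il34. Csf3r, Csf2rb2 and Csf2rb lay lower and overlapped their neighbours among themselves, between 0.495 and 0.814 CPM per kilobase on day 0 and between 1.40 and 1.88 on day 21. Csf2 and Csf3 came last on both days.

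**Figure D2:**
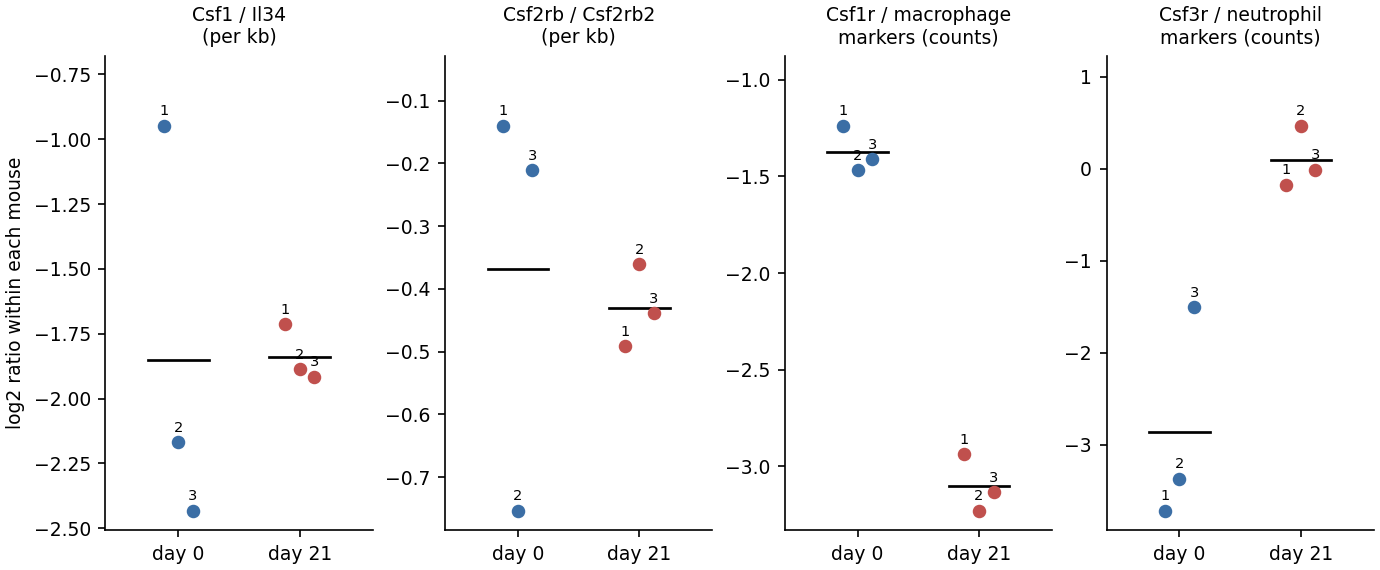
Log2 ratios between members, and between a receptor gene and a summed marker list, within each mouse, with mouse numbers beside the points. Csf1 to Il34 and Csf2rb to Csf2rb2 overlap between days, Csf1r to macrophage markers is lower on day 21 by 1.73, and Csf3r to neutrophil markers is higher by 2.96.

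Csf1r is carried by macrophages and monocytes, and their markers rose more than the receptor did. Of 16 macrophage markers 14 were tested, 11 were called higher and 1 lower, with a median log2 fold change of 3.0. Their summed level was 168 to 212 CPM on day 0 and 959 to 1275 CPM on day 21. Adgre1, which encodes the macrophage surface protein F4/80, went from 6.84 ± 1.69 to 48.0 ± 7.68 CPM (log2 fold change 2.81), and C1qa, a complement component made by tissue macrophages, from 19.3 ± 3.70 to 184.9 ± 24.5 CPM (3.25). The marker that fell was Mertk, a receptor for the uptake of dead cells (68.7 to 33.1 CPM, log2 fold change -1.06), and Cd163 and Folr2 were not called. Of the 14 markers, 11 had a 95% interval of the log2 fold change wholly above that of Csf1r.

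Measured within each mouse, Csf1r amounted to 0.424, 0.361 and 0.376 of the summed macrophage markers on day 0 and to 0.131, 0.107 and 0.114 of them on day 21. The ratio was 3.31-fold lower on day 21, a difference of -1.73 on the log2 scale, and the groups did not overlap (exact permutation p = 0.1, adjusted 0.138). The size depended on which markers made up the sum. It was -1.99 against Adgre1 alone, -2.35 without Mertk, and -0.66 without C1qa, C1qb, C1qc and Lyz2. Mertk was the most abundant gene on day 0 in that reduced sum and in the full sum, where it made up 68.7 of 187.8 CPM. Csf2ra, Csf2rb, Csf2rb2 and Csf3r were also lower against the same sum, by 0.83 to 1.28 on the log2 scale, without overlap. Monocyte markers gave 2 of 8 called higher, Ccr2 (log2 fold change 3.29) and Plac8 (2.73), with a median of 0.77.

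**Figure D3:**
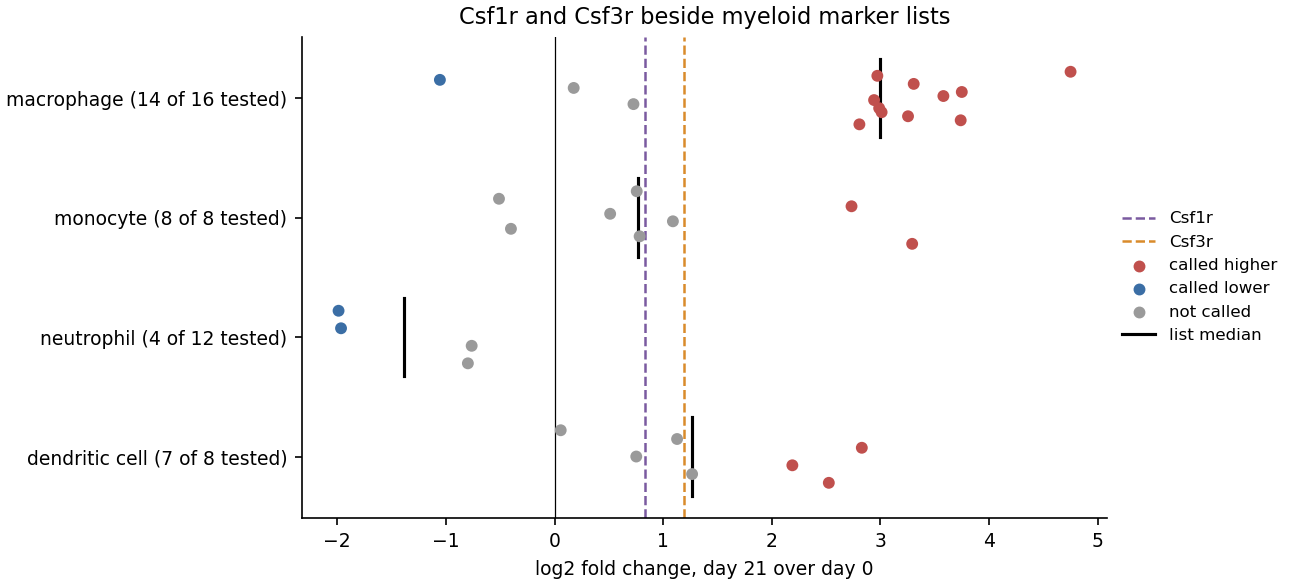
Log2 fold changes (day 21 over day 0) of Csf1r and Csf3r, as dashed lines, beside the tested macrophage, monocyte, neutrophil and dendritic cell markers, 1 point per gene, with list medians as bars. Csf1r (0.83) lies below 11 of 14 macrophage markers, and Csf3r (1.19) lies above all 4 tested neutrophil markers, whose median is -1.38.

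GM-CSF itself was hardly seen, while the genes of its receptor chains rose. Csf2, on chromosome 11 (54247271 to 54249667, minus strand), gave 0, 1 and 0 counts on day 0, beside 1, 1 and 6 on day 21. The groups overlapped, day-21 mouse 3 held 6 of the 8 day-21 counts, and both groups lay near the visible level, so no fold is given (exact permutation p = 0.3). Without a filter on low counts edgeR gave an adjusted p of 0.4. Of its exon bases 12.0% lie opposite Gm12223, which had 0, 1 and 3 counts on day 21.

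Csf2ra encodes the alpha chain that binds GM-CSF with specificity and lies on chromosome 19 (61223957 to 61228429, minus strand). Its level was 6.32, 8.74 and 7.11 CPM on day 0 and 23.3, 25.9 and 23.8 CPM on day 21. The day-21 mice had an SD of 1.36 CPM, and all were well clear of day 0. Csf2ra rose 3.28-fold (95% interval 2.55 to 4.22, log2 fold change 1.71 with SE 0.16, adjusted p = 2.1e-05), the largest rise among the receptor genes.

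Mice have a pair of beta chain genes on chromosome 15, in opposite orientation. Csf2rb (78325752 to 78353847, plus strand) encodes the chain common to GM-CSF, interleukin-3 and interleukin-5, and Csf2rb2 (78282507 to 78305721, minus strand) encodes a chain that serves interleukin-3 alone. Their coding sequences (2688 and 2634 bases) were identical at 2504 of 2626 aligned bases, or 95.4%, and the longest identical run was 242 bases. Of the 50-base words of their longest transcripts, 18.4% of those in Csf2rb and 19.4% of those in Csf2rb2 occurred in another gene, nearly all of them in the partner. These words are shorter than the paired reads that the paper describes, so the shares do not measure how many reads were ambiguous. The stretches below, from GRCm38, show where the pair is identical and where it differs most. The first was the same in both genes (exon 15 of Csf2rb, chr15:78348653-78348742, plus strand, and exon 14 of Csf2rb2, chr15:78284706-78284795, minus strand). The others were the 90 bases that differed most (exon 5 of Csf2rb, chr15:78338897-78338986, and exon 4 of Csf2rb2, chr15:78294345-78294434), where capitals mark 16 differing bases, against a median of 3 per window of 90.
Csf2rb and Csf2rb2, shared: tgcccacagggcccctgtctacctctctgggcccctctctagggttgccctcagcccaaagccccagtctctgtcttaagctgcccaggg
Csf2rb, most different: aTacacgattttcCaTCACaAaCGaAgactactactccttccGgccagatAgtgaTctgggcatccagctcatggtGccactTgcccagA
Csf2rb2, most different: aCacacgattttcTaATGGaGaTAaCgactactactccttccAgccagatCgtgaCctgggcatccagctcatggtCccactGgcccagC

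Both beta chain genes rose by about the same factor. Csf2rb was at 4.21, 3.30 and 3.30 CPM on day 0 and at 9.19, 13.1 and 8.33 CPM on day 21. Csf2rb2 was at 3.01, 3.63 and 2.47 CPM on day 0 and at 8.41, 11.0 and 7.35 CPM on day 21. Day-21 mouse 2 was the highest and day-21 mouse 3 the lowest of its group for both, and no day-0 mouse reached any of them. The rise was 2.84-fold for Csf2rb (95% interval 1.93 to 4.17) and 2.92-fold for Csf2rb2 (95% interval 1.97 to 4.32), each with an adjusted p of 7.4e-04.

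How the counting divided reads from the shared stretches is not given, so the split between the pair is uncertain. Added up as 1 gene, they gave a log2 fold change of 1.52 (adjusted p = 1.9e-04). The log2 ratio of Csf2rb to Csf2rb2 per kilobase was -0.14, -0.75 and -0.21 on day 0 and -0.49, -0.36 and -0.44 on day 21. These ranges overlapped, and the means differed by -0.06 (exact permutation p = 0.9). Csf2ra to Csf2rb also overlapped, with a difference of 0.25 (exact permutation p = 0.6).

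Of the other ligands that use the beta chain, neither was seen beyond 1 count, and their alpha chain genes differed in level and change. Il3 had no count in any mouse and Il5 had 1 count in all. Il3ra, the alpha chain for interleukin-3, gave 8, 18 and 10 counts on day 0, beside 145, 161 and 201 on day 21, with no overlap. It rose from 1.11 ± 0.347 to 10.7 ± 1.41 CPM (log2 fold change 3.25, SE 0.28, adjusted p = 1.2e-05). Il5ra, the alpha chain for interleukin-5, gave 129, 35 and 32 counts on day 0, beside 90, 147 and 114 on day 21, and was not called (log2 fold change 0.22, adjusted p = 0.73). Its groups overlapped only through day-0 mouse 1, the mouse with raised Krt20. Markers of eosinophils, basophils and mast cells, which carry these chains, were too low to test for all 8 genes, with a summed level of at most 0.301 CPM on day 0 and 0.477 CPM on day 21. Dendritic cell markers rose in 3 of 7 tested genes, with a median log2 fold change of 1.27.

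The G-CSF receptor gene rose from a low level, and G-CSF itself was at the edge of what could be seen. Csf3, on chromosome 11 (98701263 to 98703629, plus strand), had no count in any day-0 mouse, and 1, 7 and 7 counts were found on day 21. The groups did not overlap (exact permutation p = 0.1), but day-21 mouse 1, with 1 count, was itself under the floor of 3 counts. The day-21 mean was only 1.07 times the mean day-0 level of that floor, so no fold is given. Csf3 did not pass the filter on low counts, and without the filter edgeR called it higher (adjusted p = 0.036).

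Csf3r, the G-CSF receptor, lies on chromosome 4 (126024550 to 126044440, plus strand). Its day-0 counts were 16, 35 and 42 and its day-21 counts 93, 123 and 101, or 1.60, 2.89 and 4.33 CPM against 6.57, 7.34 and 6.19 CPM. The day-0 mice spread widely and the day-21 mice little, without overlap. Csf3r rose 2.28-fold, with the widest interval of the 7 genes on the log2 scale (95% interval 1.39 to 3.76, log2 fold change 1.19 with SE 0.32, adjusted p = 0.013). Of the 50-base words of its transcript, 11.2% occurred in other genes, most of them in AC105061.2, which had at most 3 counts in any mouse.

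Neutrophils are the main carriers of Csf3r, and their markers did not rise. Of 12 neutrophil markers 4 were tested, none was called higher and 2 were called lower, S100a8 (log2 fold change -1.97, adjusted p = 0.0060) and S100a9 (-1.99, adjusted p = 6.8e-04), which encode calprotectin. Cxcr2, a chemokine receptor of neutrophils, had a log2 fold change of -0.80 and was not called (adjusted p = 0.21). The granule enzyme genes Mpo and Elane had no count in any mouse, and Ly6g had at most 4. The summed markers stood at 12.4 to 30.2 CPM on day 0 and 5.31 to 7.42 CPM on day 21.

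Csf3r amounted to 0.0759, 0.0969 and 0.353 of the summed neutrophil markers on day 0, and on day 21 to 0.886, 1.38 and 0.990 of them. The ratio was 7.76-fold higher on day 21 (2.96 on the log2 scale), with no overlap and an exact permutation p of 0.1 (adjusted 0.138). It differed by 3.20 against S100a8 and S100a9 alone and by 2.23 against Cxcr2 alone. Against the macrophage sum the same receptor went the other way, by -1.28.

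**Figure D4:**
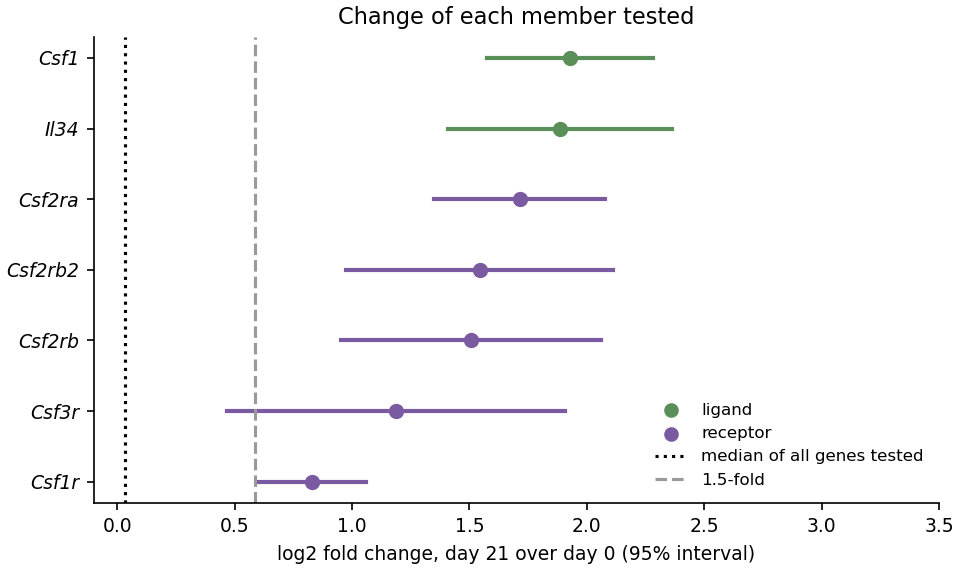
Log2 fold changes (day 21 over day 0) of the 7 tested genes with 95% intervals from edgeR, a dotted line at the median of all genes tested and a dashed line at 1.5-fold. All intervals lie above the dotted line, from Csf1 at 1.93 to Csf1r at 0.83, and Csf3r has the widest, which crosses the dashed line.

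Promoter sequence was available from RefSeq (GRCm38.p6) for 5 of the 9 genes, Csf1, Csf2, Csf2ra, Csf2rb2 and Csf3r. The 250 bases before the RefSeq start were searched on both strands for the core of the PU.1 site (GAGGAA), a STAT site (TTCNNNGAA) and an AP-1 site (TGANTCA), which do not overlap in these windows. RefSeq and GENCODE place some starts differently, so 109 bases of the Csf3r window and 11 of the Csf2ra window lie inside the gene by the GENCODE positions given above. The Csf2 window (chr11:54249900-54250149, minus strand) stops short of the GENCODE start at 54249667, and the bases between were not searched. PU.1, encoded by Spi1, is the transcription factor that myeloid receptor genes are known to depend on, and Spi1 rose from 3.69 ± 0.506 to 25.0 ± 3.03 CPM (log2 fold change 2.75). The PU.1 letters were found in all 3 receptor windows searched and in neither ligand window, and 23.3% of all 32851 promoters of this length hold them. Csf1r and Csf2rb had no window. The Csf2ra and Csf2rb2 windows are shown because they hold matches, in capitals, and lie wholly or nearly wholly before the gene in both annotations. Csf2ra (chr19:61228419-61228668, minus strand) had 2 adjoining PU.1 matches that begin 14 and 8 bases before the RefSeq start and reach into those 11 bases. Csf2rb2 (chr15:78305722-78305971, minus strand) had 1 beginning at base 167 before the start, on the other strand, and a STAT match at base 15, a motif in 7.0% of promoters. Csf3r (chr4:126024409-126024658, plus strand) had 1 PU.1 match at base 86 before the RefSeq start, which is inside the gene by GENCODE. The AP-1 letters, in 6.7% of promoters, were in none of the 5 windows. A match is a string of letters and no measurement of binding, and a part of PU.1 in these changes was not tested.
Csf2ra: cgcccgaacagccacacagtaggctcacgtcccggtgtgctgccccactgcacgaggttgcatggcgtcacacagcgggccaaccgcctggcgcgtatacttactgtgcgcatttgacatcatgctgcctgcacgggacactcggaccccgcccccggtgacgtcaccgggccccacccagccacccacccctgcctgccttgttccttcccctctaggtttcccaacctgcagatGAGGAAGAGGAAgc
Csf2rb2: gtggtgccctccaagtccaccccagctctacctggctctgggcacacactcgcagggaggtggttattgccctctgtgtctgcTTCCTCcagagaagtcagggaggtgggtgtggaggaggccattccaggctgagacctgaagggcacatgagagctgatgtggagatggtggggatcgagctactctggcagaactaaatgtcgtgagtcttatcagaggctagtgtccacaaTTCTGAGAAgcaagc

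Genes around the receptors were followed in 6 lists of 85 genes. Of these, 76 were tested, 47 were called higher, 2 lower and 27 not, with a median log2 fold change of 0.84, against 19.6% called higher among all genes tested. The shares differed between lists.

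Among partner ligands and receptors, 2 of 7 tested genes rose, Il3ra and Sdc1 (log2 fold change 1.47), which encodes syndecan-1, a surface proteoglycan that binds IL-34. The lowest values were those of Kitl (-0.24) and Kit (-0.17), a ligand and receptor related to the CSF-1 pair, and neither was called. Ptprz1, another receptor for IL-34, had no count on day 0 and 4, 10 and 2 on day 21.

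Of 24 kinases and adaptors that act next to these receptors, 14 rose and none fell, with a median of 0.71. The largest changes were those of Trem2 (4.35), a myeloid lipid receptor, and Tyrobp (2.74), which encodes the adaptor DAP12 that TREM2 and CSF-1R signal through. Pik3cb (-0.44), a catalytic subunit of PI3-kinase, was lowest and was not called. Gab3, an adaptor that binds activated CSF-1R, was at or under 3 counts in every day-0 mouse and was at least 4.81-fold higher on day 21.

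Among the STAT genes, which encode the transcription factors that cytokine receptors activate, Stat5b fell (log2 fold change -0.61, adjusted p = 0.0024). STAT5 is the usual carrier of the GM-CSF signal. Stat3 (0.43), the main STAT of G-CSF, Stat6 (0.03) and Stat5a (-0.35) were not called.

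Of 11 inhibitors of cytokine signalling, 8 rose and none fell, with a median of 1.06. Socs3 (2.36), which restrains the G-CSF receptor, and Socs1 (2.21) led, while Cblb (0.03) and Sh2b3 (0.07) were lowest and not called.

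Of 16 tested myeloid transcription factors, 14 rose and 1 fell, with a median of 1.17. Runx1 (3.21) and Egr2 (3.0) had the largest changes. Maf fell (log2 fold change -1.01, adjusted p = 3.9e-05), and Cebpa (-0.10), needed for the granulocyte line, was not called.

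Of 13 tested genes for the induction, shedding and decay of colony-stimulating factors, 8 rose and none fell, with a median of 0.64. Tnf, which induces Csf1 and Csf2 in many cells, had no count on day 0 and 27, 29 and 18 counts on day 21, at least 5.53-fold higher against the floor of 3 counts per library. Nfkbiz, an NF-kB cofactor downstream of interleukin-17 and interleukin-1, rose by 1.89 and Il1b by 1.29 on the log2 scale. The lowest values were those of Il17ra (-0.27) and Zfp36 (0.17), which encodes an RNA-binding protein that speeds decay of Csf2 mRNA, and neither was called.

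**Figure D5:**
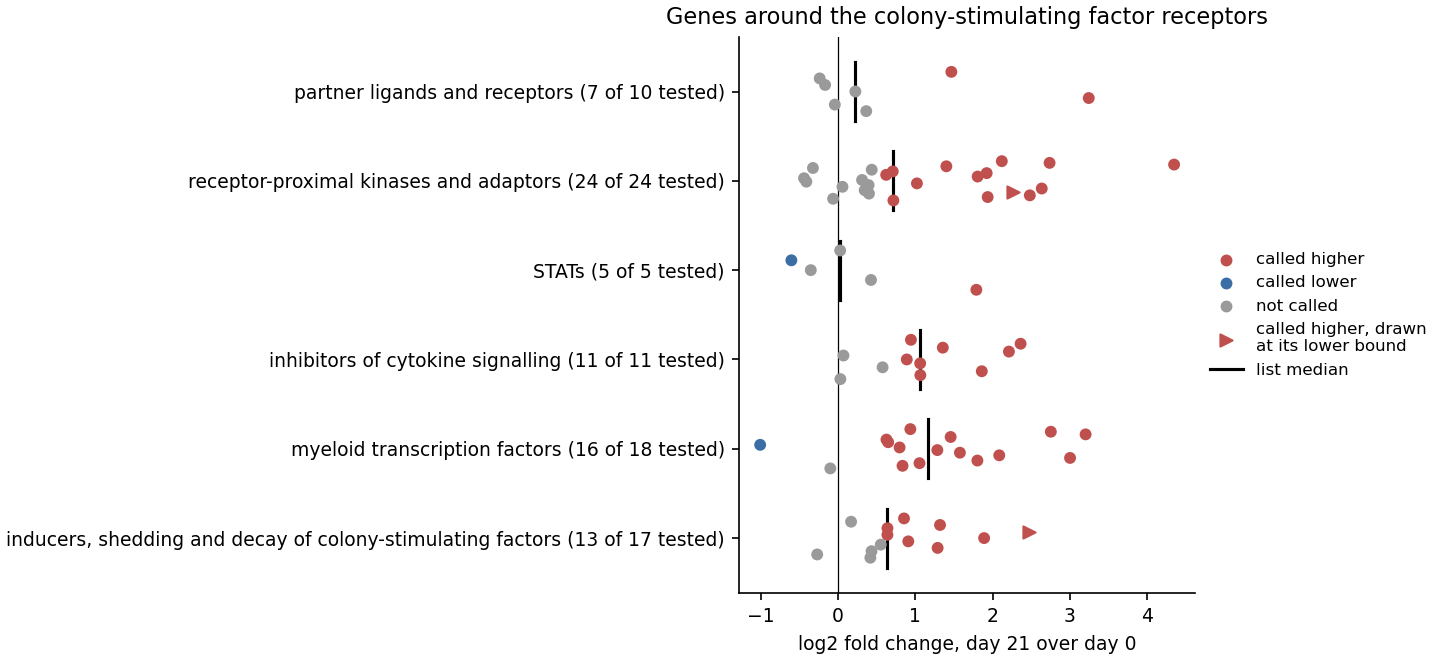
Log2 fold change (day 21 over day 0) of each tested gene in the 6 lists around the colony-stimulating factor receptors, with list medians as bars and genes at or under 3 counts on day 0 drawn at their lower bound. Medians run from 0.03 for the STATs to 1.17 for the myeloid transcription factors, and Stat5b and Maf are the genes called lower.

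Genes with the most similar pattern over the 6 mice were found among 13142 genes by Euclidean distance of centred log2 CPM, where 0 would be the same pattern. Csf1r had the closest companion, Cd47 (distance 0.051), a surface protein that restrains uptake by macrophages, followed by Ctu2 and Faim. Csf1 was nearest to Evl (0.112), Spns2 and Pdlim7, and Csf2ra to Wdfy4 (0.169), Vsir and Susd1. Il34 was nearest to Gm19719 (0.251), Pirb and Slamf7, Csf2rb to Pamr1 (0.218), Fam49b and Pltp, Csf2rb2 to Srd5a1 (0.287), Ly6a and Rps6ka1, and Csf3r to Asap3 (0.245), Kctd13 and Nuak1. No gene of the 9 was among the 3 nearest of another. With 2 groups of 3 mice, genes with a like fold change are near by construction.

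Markers of other cells moved beside these genes, and their part in the results was not tested. T cell markers rose in 7 of 8 genes, with a summed level of 16.3 to 17.4 CPM on day 0 and 39.9 to 48.4 CPM on day 21. The B cell list had 1 of 5 genes tested, which was not called. Fibroblast and pericyte markers rose in 6 of 6 genes (median log2 fold change 1.22) and podocyte markers fell in 3 of 4. Kdr alone among 5 endothelial markers was called lower. Among all 16592 genes tested, 3249 were called higher and 2572 lower. Of 6 osteoclast genes, which macrophages also express under CSF-1, 3 were tested and 1 rose, Ctsk (log2 fold change 2.82).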

How the data were processed

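Kidney RNA was read as paired-end cDNA fragments after TRIzol extraction and an Illumina TruSeq library preparation. The authors deposited raw counts per gene for each mouse, with no normalization. The submitters' processing notes name TopHat and mm10, while the counting program and its strand setting are not given in the sources used here. Gene identifiers are those of GENCODE M21 on GRCm38, which supplied positions and exon lengths. The members and lists were chosen with earlier results of these data known.

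Counts were filtered with filterByExpr (minimum count 10, minimum total 15), scaled by TMM and tested with edgeR 4.0.16 in R 4.3.3, day 21 against day 0, with Benjamini-Hochberg adjustment over 16592 genes. A call needed a fold over 1.5 with an adjusted p under 0.05. CPM values use TMM library sizes, with factors of 0.852 to 0.886 on day 0 and 1.12 to 1.17 on day 21. Ratios within a mouse used counts plus 0.5 per kilobase of exon, or summed marker counts with no length, and a two-sided exact permutation test (Python 3.11.15). Steps were tested on simulated data. All 9 genes are named. List genes are named by the 2 largest and 2 smallest fold changes, or by role where a result turns on them (some list genes are not reported here), and the 3 nearest genes by distance among genes with a mean of at least 50 counts. Alternatives were other scalings and filters, DESeq2 1.42.0, limma-voom (limma 3.58.1), a replicate block, each mouse left out and stricter thresholds. Thinning to the lowest total, Csf2rb and Csf2rb2 added up, and further marker sums were chosen after seeing the data. No 2 mice of a group were duplicates (chi-square per gene 7.19 to 24.0). No column was left unmapped.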

Additional observations from a re-analysis of the deposited data

How the results depend on the processing

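The count of 7 members called higher held under 3 other scalings, DESeq2, limma-voom, thinning, a stricter filter and each mouse left out. It was 8 without a filter, where Csf3 joined, and 5 at a fold over 2 with an adjusted p under 0.01, without Csf1r and Csf3r. Over 106 alternative values, each of the 7 fold changes kept its direction and its call. Csf3r came closest to the threshold, with log2 fold changes of 0.89 to 1.58 and adjusted p-values up to 0.044, the highest without day-21 mouse 2. Pathway genes called fell from 49 to 31 at the stricter thresholds, through fewer genes passing them, and were 43 to 49 with a mouse left out. Scaling by library size alone raised the median over all genes from 0.03 to 0.42 on the log2 scale (0.12 with upper quartiles), the higher share of calls from 55.8% to 81.7%, and the pathway calls to 58. Csf1r was then at 1.22.

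With a mouse left out, the difference in the Csf1 to Il34 ratio ran from -0.28 to 0.46 and that in the Csf2rb to Csf2rb2 ratio from -0.26 to 0.052, so neither has a stable sign. The Csf1r to macrophage difference ran from -1.81 to -1.66 and the Csf3r to neutrophil difference from 2.53 to 3.64. The replicate block left 7 members and 49 pathway genes called. Deviations of same-numbered mice correlated at -0.03, 0.20 and 0.15, so the numbers were not taken to pair mice. With 3 mice per group the exact test cannot go below 0.1, and depth limits Csf2 and Csf3 in particular.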
